A study of Mus musculus with 63 samples.

Results

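Pax5, Ebf1, Ikzf1, Ikzf3, Spib, Pou2af1, Irf4, Irf8, Bcl6 and Prdm1 encode 10 transcription regulators of the B lineage, and each was represented by its probe set with a single gene symbol. These are 10 of 19938 genes measured on 63 Affymetrix arrays. The arrays held RNA of lymphoma cells from lymph nodes of C57BL/6 mice transgenic for Emu-myc, a Myc transgene under the immunoglobulin heavy-chain enhancer, used without culture. The CTX 4h group (31 arrays) was labelled as taken 4 h after cyclophosphamide (CTX), an alkylating drug, with a dose of 300 mg/kg given for 29 of them, and the other group (32 arrays) as native, with no drug named in its treatment label. The series text speaks of therapy-naive samples alone, so the groups rest on the array labels, which leave unstated whether the hosts of native cells were transgenic donors or transplanted recipients. All values are log2 expression values, in which 1 unit is a doubling, and levels are not compared between probe sets.

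B-cell identity is built by a short chain of transcription factors. EBF1 opens B-lineage genes in early progenitors and, with PAX5, switches on the genes of the B-cell receptor complex, while PAX5 also holds down genes of other lineages. Of the related zinc finger proteins Ikaros (Ikzf1) and Aiolos (Ikzf3), Aiolos follows pre-B-cell signals. The coactivator OBF-1 (Pou2af1) and the ETS factor SPI-B (Spib) act mainly in later B cells. IRF4 and IRF8 share DNA sites but take different roles, IRF4 in plasma cell formation and IRF8 in germinal centre B cells and in dendritic cells. BCL6 drives the germinal centre programme, and BLIMP-1 (Prdm1) drives plasma cells, each known to repress the other's gene.

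On assembly GRCm38.p6 the genes lie on chromosome 4 (Pax5, 44524748 to 44710694), chromosome 7 (Spib, 44525995 to 44532087), chromosome 8 (Irf8, 120736358 to 120756694), chromosome 9 (Pou2af1, 51213690 to 51240079) and chromosome 10 (Prdm1, 44437174 to 44528558). Chromosome 11 holds Ebf1 (44618100 to 45008096), Ikzf1 (11684962 to 11772930) and Ikzf3 (98464610 to 98546031). Irf4 lies on chromosome 13 (30749233 to 30766981) and Bcl6 on chromosome 16 (23965050 to 23988866). RefSeq promoter sequences were matched for 9 of the 10 genes, with 13 start sites. Ebf1, Pou2af1 and Irf4 are shown because they varied together across lymphomas, and Irf8 because it varied against Pou2af1 and Irf4. Each run holds the 250 bases before 1 annotated start, 5′ to 3′. Capitals mark motifs found on either strand: in Ebf1 a repeat of GAAA with 2 free bases between its copies, a spacing read by IRF factors, in Pou2af1 TGCAAAT, the core of the octamer that OBF-1's partners bind, and in Irf4 and Irf8 TATAAA.
Ebf1 start on chromosome 11, GRCm38.p6 chr11:44617850-44618099, plus strand: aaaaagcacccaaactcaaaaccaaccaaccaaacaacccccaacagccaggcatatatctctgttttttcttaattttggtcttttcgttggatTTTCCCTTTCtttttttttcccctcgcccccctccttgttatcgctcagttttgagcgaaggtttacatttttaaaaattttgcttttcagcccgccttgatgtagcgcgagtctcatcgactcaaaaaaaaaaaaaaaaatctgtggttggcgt
Pou2af1 start on chromosome 9, GRCm38.p6 chr9:51213440-51213689, plus strand: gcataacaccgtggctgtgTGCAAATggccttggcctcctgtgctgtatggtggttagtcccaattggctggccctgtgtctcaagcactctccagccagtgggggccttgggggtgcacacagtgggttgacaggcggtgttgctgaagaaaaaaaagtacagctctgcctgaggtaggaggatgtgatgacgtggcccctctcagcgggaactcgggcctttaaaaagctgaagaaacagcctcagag
Irf4 start on chromosome 13, GRCm38.p6 chr13:30748983-30749232, plus strand: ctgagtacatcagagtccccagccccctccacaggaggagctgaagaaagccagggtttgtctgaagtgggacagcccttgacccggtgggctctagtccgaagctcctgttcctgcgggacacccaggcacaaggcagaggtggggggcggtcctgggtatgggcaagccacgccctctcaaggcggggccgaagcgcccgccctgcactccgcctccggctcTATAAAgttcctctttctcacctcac
Irf8 start on chromosome 8, GRCm38.p6 chr8:120736108-120736357, plus strand: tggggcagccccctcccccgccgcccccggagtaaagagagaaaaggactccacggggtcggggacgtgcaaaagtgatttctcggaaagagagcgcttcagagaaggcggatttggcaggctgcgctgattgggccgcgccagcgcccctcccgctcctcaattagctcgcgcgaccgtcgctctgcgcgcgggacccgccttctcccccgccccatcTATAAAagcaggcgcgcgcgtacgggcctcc

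The octamer core stood at positions -231 to -225 from the Pou2af1 start, and also before 1 start each of Spib and Prdm1. It was held by 3.58% of 32536 distinct promoter windows of this length. TATAAA was held by 12.3% of the windows, among the members by Irf4 and Irf8, and the spaced GAAA repeat by 2.98%. The Ikaros core TGGGAA was held by 21.6% and by 1 start each of Ebf1, Irf8 and Prdm1, and GGAA followed after 2 free bases by GAAA, a joint ETS and IRF site, by 2.31% and by 1 start of Bcl6. The EBF site, TCCC and GGGA with 2 free bases between them (0.787% of windows), the full octamer ATGCAAAT (1.62%, which contains the core) and the E-box CAGCTG (13.1%) were in none of the members' windows. The core and TATAAA were searched for after the sequences had been seen, and a match describes letters, not binding.

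Array medians ran from 6.53 to 7.11. Labelling started from 100 ng of RNA in 29 CTX 4h arrays and 15 native ones, and from 300 ng in 2 CTX 4h arrays and 17 native ones. RNA input goes with another growth protocol text in the labels, so input and protocol cannot be told apart. Lymphoma numbers of the 100 ng arrays start with 1, 8 or 9. These number series and the 300 ng arrays are treated as 4 batches, with 6, 9, 14 and 2 CTX 4h arrays and 7, 3, 5 and 17 native arrays. The labels do not state that arrays stand for separate mice, and the p-values cover the spread between the samples as deposited. The nodes were not purified by cell type, so fewer cells of a type and less RNA per cell cannot be told apart in any value below.

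Some arrays stood apart in some B-lineage markers, though not in all. In CTX 4h replicate 23 and in native replicate 15, Cd79a, a chain of the B-cell receptor, had the lowest value of its group, 9.16 and 8.38. The medians of the other arrays were 12.10 and 12.30. The B-lineage genes Cd22 (10.56 and 11.25) and Blnk (10.32 and 10.49) lay within the range of the other arrays. The same arrays had the highest Siglech, a marker of plasmacytoid dendritic cells, at 10.43 and 10.63, against medians of 7.13 and 7.26 in the other arrays of their groups. Native replicates 4 and 25 had the lowest Myc values, 10.64 and 11.39, against a native median of 13.26. Some results below are also given without these arrays, and others shown over all arrays may rest on them in part.

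The first question was how far the regulators vary between lymphomas. Pou2af1, Ebf1 and Irf4 varied most, and their low values came from few tumours. Pou2af1 ran over 8.48, 11.47 and 12.60 (lowest, median, highest) in CTX 4h lymphomas and over 7.09, 11.61 and 12.80 in native ones. The native range spans 52.3-fold on the linear scale, and the SD of 1.23 (n = 32) ranked at percentile 99.5 of all genes. Ebf1 ran over 8.45, 10.94 and 12.24 in CTX 4h lymphomas and over 8.09, 11.28 and 12.41 in native ones, where its SD was 0.98 (percentile 98.7). Irf4 ran over 7.32, 9.58 and 10.95 in CTX 4h lymphomas and over 7.26, 9.94 and 11.22 in native ones, with a native SD of 0.79 (percentile 96.9). For all 3 genes the lowest array was replicate 23 of the CTX 4h group and replicate 15 of the native group. Without native replicate 15 the native SDs were 0.96 for Pou2af1, 0.82 for Ebf1 and 0.64 for Irf4. They were still above 0.60, the 90th percentile of the SD over all genes when all 32 native arrays are kept.

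Bcl6 was the fourth member among the most variable 10% of genes in native lymphomas. It ran over 5.89, 7.23 and 9.76 in CTX 4h lymphomas and over 6.29, 7.55 and 8.98 in native ones (native SD 0.61, percentile 91.0). Prdm1 ran over 5.44, 6.46 and 8.66 in CTX 4h lymphomas and over 5.57, 6.33 and 8.47 in native ones (native SD 0.57). Prdm1 was highest in replicate 27 of each group. The next highest values were 8.14 in CTX 4h replicate 2, with replicate 10 close to it, and 7.38 in native replicate 21, so the native array stood alone and the CTX 4h array did not. Both replicates 27, from the series with numbers starting with 1, also had the highest Igll1, a surrogate light chain gene of precursor B cells, at 13.80 and 13.41.

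The remaining members had narrower ranges. Pax5 ran over 9.32, 10.82 and 11.68 in CTX 4h lymphomas and over 9.49, 11.09 and 11.68 in native ones (native SD 0.53). Ikzf1 ran over 10.17, 10.81 and 11.89 in CTX 4h lymphomas and over 9.71, 10.98 and 12.09 in native ones (native SD 0.52). Ikzf3 ran over 10.04, 10.99 and 11.71 in CTX 4h lymphomas and over 9.58, 11.17 and 11.96 in native ones (native SD 0.50). The lowest native value of Ikzf1, Ikzf3 and Spib was in replicate 25, and of Pax5 in replicate 15. Spib ran over 10.52, 11.45 and 12.43 in CTX 4h lymphomas and over 10.03, 11.74 and 12.62 in native ones (native SD 0.55). Irf8 ran over 10.43, 11.01 and 12.24 in CTX 4h lymphomas and over 10.29, 11.02 and 12.86 in native ones (native SD 0.55), and its extremes were high rather than low. All 10 members had a native SD above the median of all genes, 0.32, and 5 members were among the most variable 10% in CTX 4h lymphomas.

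**Figure D1:**
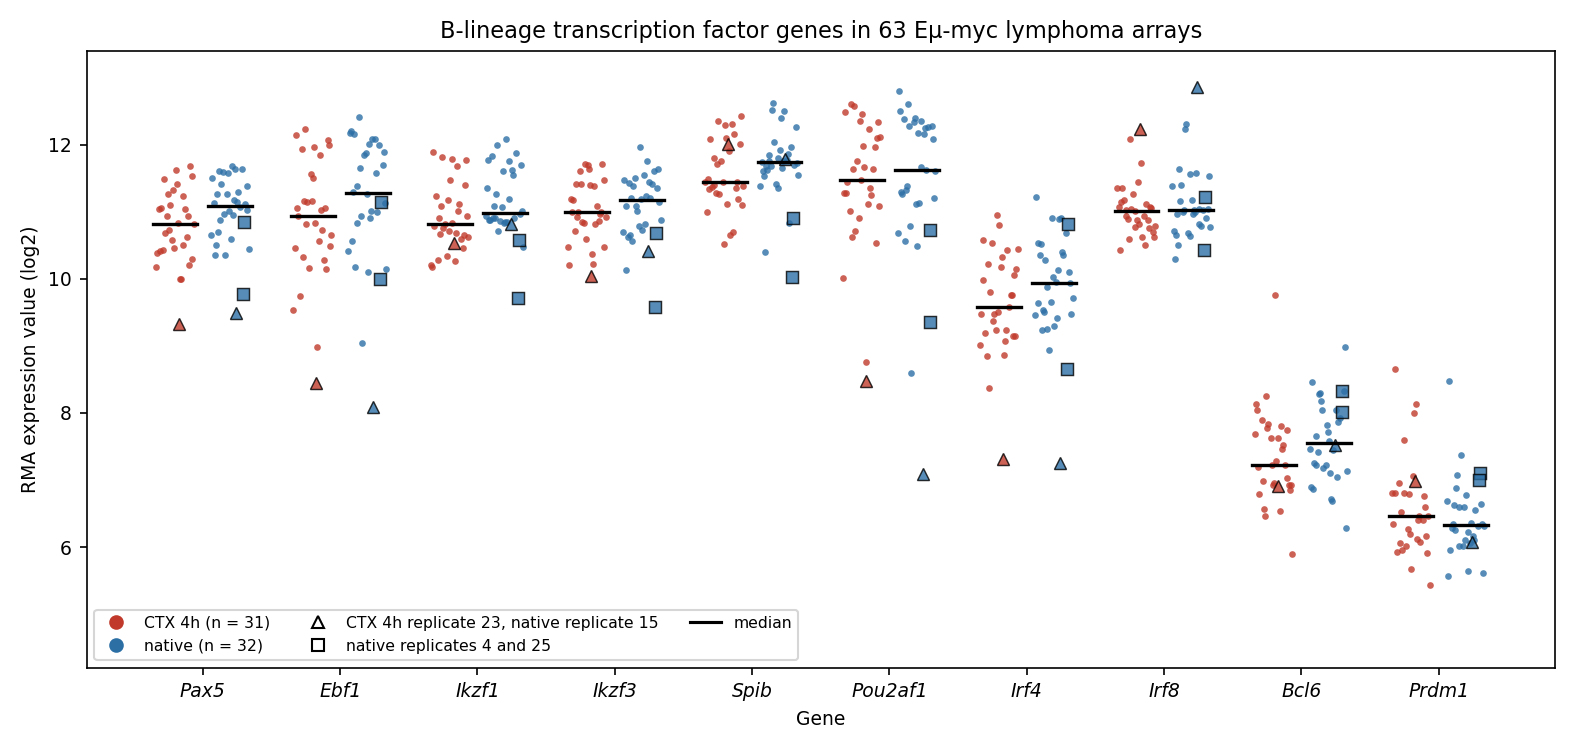
Log2 expression value of each gene in each array, with CTX 4h arrays (n = 31, red) left of native arrays (n = 32, blue) and black bars for medians; triangles mark CTX 4h replicate 23 and native replicate 15, squares native replicates 4 and 25. The groups overlap for every gene, and the triangles are lowest for Pax5, Ebf1, Pou2af1 and Irf4 and highest for Irf8.

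The second question was which regulators vary together. Each gene was centred within batch, and Pearson's r and Spearman's rho were tested by 100000 permutations of arrays within batch, with adjustment over 90 relations (45 pairs in both groups) and 1e-05 as the smallest p the permutations can give. Each pair among Pax5, Ebf1, Pou2af1, Irf4 and Ikzf3 was positively related by r in both groups, though not in every batch. In CTX 4h lymphomas some of these pairs were not called by rho. By r, Irf8 moved against Pou2af1 and Irf4 in both groups and against Ebf1 in native lymphomas. Bcl6 was related to no member by r in CTX 4h lymphomas and to Prdm1 in native ones. Of 45 pairs, 15 were positively and 2 negatively related in CTX 4h lymphomas, against 19 and 3 in native lymphomas. Of all pairs of a member with another gene, 3.67% reached the lowest positive r called (0.52) and 1.39% the weakest negative one (-0.56) in CTX 4h lymphomas, against 9.97% (0.44) and 3.66% (-0.58) in native lymphomas. In both groups 15 pairs were called positive and 2 negative.

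**Figure D2:**
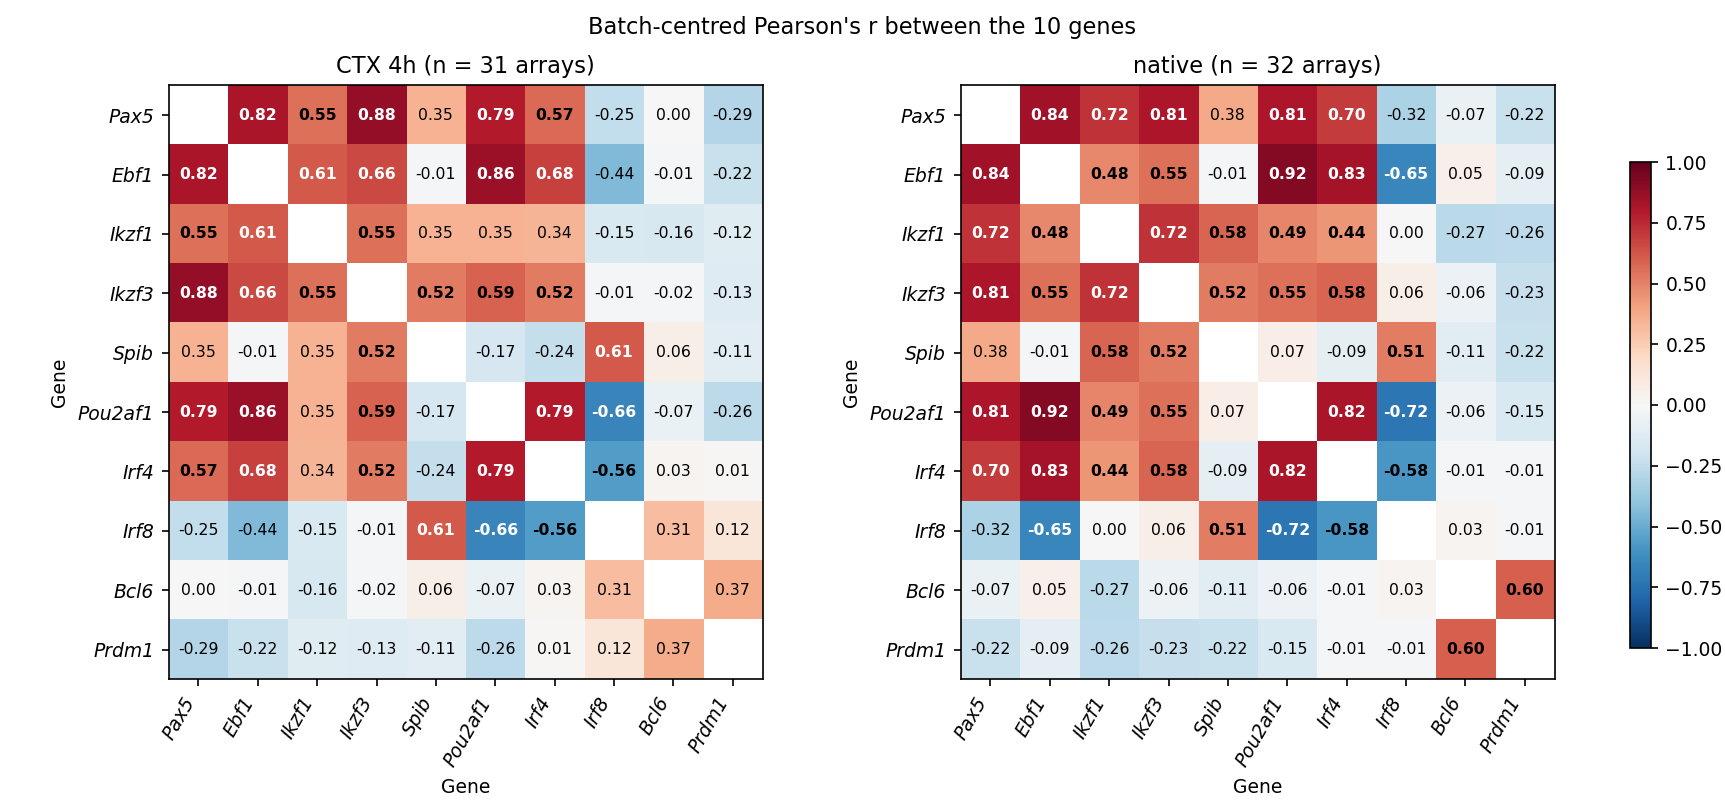
Batch-centred Pearson's r for each pair of genes over 31 CTX 4h arrays (left) and 32 native arrays (right), red for positive and blue for negative r, with an adjusted permutation p under 0.05 in bold. Ebf1 with Pou2af1 reads 0.86 on the left and 0.92 on the right, and Pou2af1 with Irf8 reads -0.66 and -0.72.

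Ebf1 and Pou2af1 gave r = 0.86 and rho = 0.74 in CTX 4h lymphomas (adjusted permutation p = 0.00018) and r = 0.92 and rho = 0.83 in native lymphomas (adjusted permutation p = 0.000112). Of 19937 other genes, Pou2af1 was the 2nd most positively related to Ebf1 in native lymphomas. Without the 2 arrays farthest from the median of Ebf1, r was 0.71 and 0.81. Within batches r was 0.38, 0.61 and 0.91 in CTX 4h number series 1, 8 and 9, and 0.33 and 0.96 in native number series 1 and 300 ng arrays, positive in each batch of 6 or more arrays. Pou2af1 with Irf4 had r = 0.79 (rho = 0.72) in CTX 4h lymphomas and 0.82 (rho = 0.73) in native ones, both with adjusted permutation p = 0.000112, and was positive in the same batches. Ebf1 with Irf4 gave 0.68 (rho = 0.51) and 0.83 (rho = 0.75), with adjusted permutation p = 0.00291 and 0.000112, but -0.08 in CTX 4h series 1. When CTX 4h replicate 23 and native replicate 15 were left out, r was 0.64 and 0.66 for Pou2af1 with Irf4. For Ebf1 with Irf4 it was then 0.45 and 0.70.

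Pax5 and Ikzf3 were each other's most positively related gene among all genes in CTX 4h lymphomas. Their r was 0.88 (rho = 0.77) in CTX 4h lymphomas and 0.81 (rho = 0.82) in native ones, both with adjusted permutation p = 0.000112. It was 0.63, 0.68 and 0.94 in the CTX 4h series 1, 8 and 9 and 0.64 and 0.82 in native series 1 and 300 ng arrays. Without the 2 arrays farthest from the median of Pax5 it was 0.85 and 0.80. Pax5 with Ikzf1 gave r = 0.55 (rho = 0.52) in CTX 4h lymphomas and 0.72 (rho = 0.70) in native ones, with adjusted permutation p = 0.0247 and 0.00103. Ikzf1 with Ikzf3 gave 0.55 (rho = 0.48) and 0.72 (rho = 0.61), with adjusted permutation p = 0.0192 and 0.000818. In series 1 these relations were not positive throughout, with -0.19 and 0.56 for Pax5 with Ikzf1 and -0.57 and -0.23 for Ikzf1 with Ikzf3. Ikzf3 with Ebf1 gave r = 0.66 in CTX 4h lymphomas and 0.55 in native ones (adjusted permutation p = 0.00304 and 0.00967), but -0.41 and -0.57 in series 1. Ikzf3 with Pou2af1 gave 0.59 and 0.55 (adjusted permutation p = 0.0078 and 0.00984), but -0.27 and -0.32 in series 1, and by rho it was not called in CTX 4h lymphomas (adjusted permutation p = 0.11). Ikzf3 with Irf4 gave 0.52 and 0.58 (adjusted permutation p = 0.0139 and 0.00304), and 0.28 and 0.08 in series 1. By rho (0.41 and 0.58) it was not called in CTX 4h lymphomas (adjusted permutation p = 0.0717). When CTX 4h replicate 23 and native replicate 15 were left out, r for Ikzf3 with Irf4 was 0.36 and 0.56.

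Pax5 with Ebf1, the pair that commits cells to the B lineage, gave r = 0.82 (rho = 0.62) in CTX 4h lymphomas and 0.84 (rho = 0.77) in native ones, both with adjusted permutation p = 0.000112. This relation did not hold in every batch. In number series 1, where both genes varied less (Pax5 SD 0.17 in CTX 4h and 0.22 in native arrays), r was -0.25 (n = 6) in CTX 4h lymphomas and -0.70 (n = 7) in native ones, against 0.92 (n = 14) in CTX 4h series 9 and 0.96 (n = 17) in native 300 ng arrays. In CTX 4h series 8 (n = 9) it was 0.29. Pax5 with Pou2af1 was similar, with r = 0.79 (rho = 0.52) and 0.81 (rho = 0.71) over all batches (adjusted permutation p = 0.000831 and 0.00018) and -0.46 and -0.24 in series 1. In CTX 4h series 8 its r was 0.23. Pax5 with Irf4 gave 0.57 (rho = 0.28) and 0.70 (rho = 0.54), with adjusted permutation p = 0.0102 and 0.000825. By rho it was not called in CTX 4h lymphomas (adjusted permutation p = 0.245). Without CTX 4h replicate 23 and native replicate 15, r for Pax5 with Irf4 was 0.29 and 0.52. In series 1 it was -0.43 and -0.52, and in CTX 4h series 8 it was -0.01. With the same arrays left out, r was 0.68 and 0.74 for Pax5 with Ebf1 and 0.58 and 0.70 for Pax5 with Pou2af1.

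Irf8 was related to Pou2af1 with r = -0.66 (rho = -0.56) in CTX 4h lymphomas and -0.72 (rho = -0.55) in native ones, with adjusted permutation p = 0.00304 and 0.00287. Of 19937 genes, Pou2af1 was the 5th most negatively related to Irf8 in native lymphomas. The sign was negative in each batch of 6 or more arrays, from -0.44 to -0.94 in CTX 4h series and at -0.87 and -0.81 in native series 1 and 300 ng arrays. The size rested in part on a few arrays: without the 2 arrays farthest from the median of Pou2af1, r was -0.36 in both groups. Irf4 with Irf8, relatives with opposite known roles in plasma cell formation, gave -0.56 (rho = -0.55) and -0.58 (rho = -0.42), with adjusted permutation p = 0.0175 and 0.00967. Without CTX 4h replicate 23 and native replicate 15 that r was -0.32 and -0.34. Ebf1 with Irf8 was called in native lymphomas alone, with r = -0.44 and -0.65 (adjusted permutation p = 0.0644 and 0.00685). By rho (-0.28 and -0.42) it was called in neither group (adjusted permutation p = 0.255 and 0.062). With the same arrays left out, r for Ebf1 with Irf8 was -0.07 and -0.43.

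**Figure D3:**
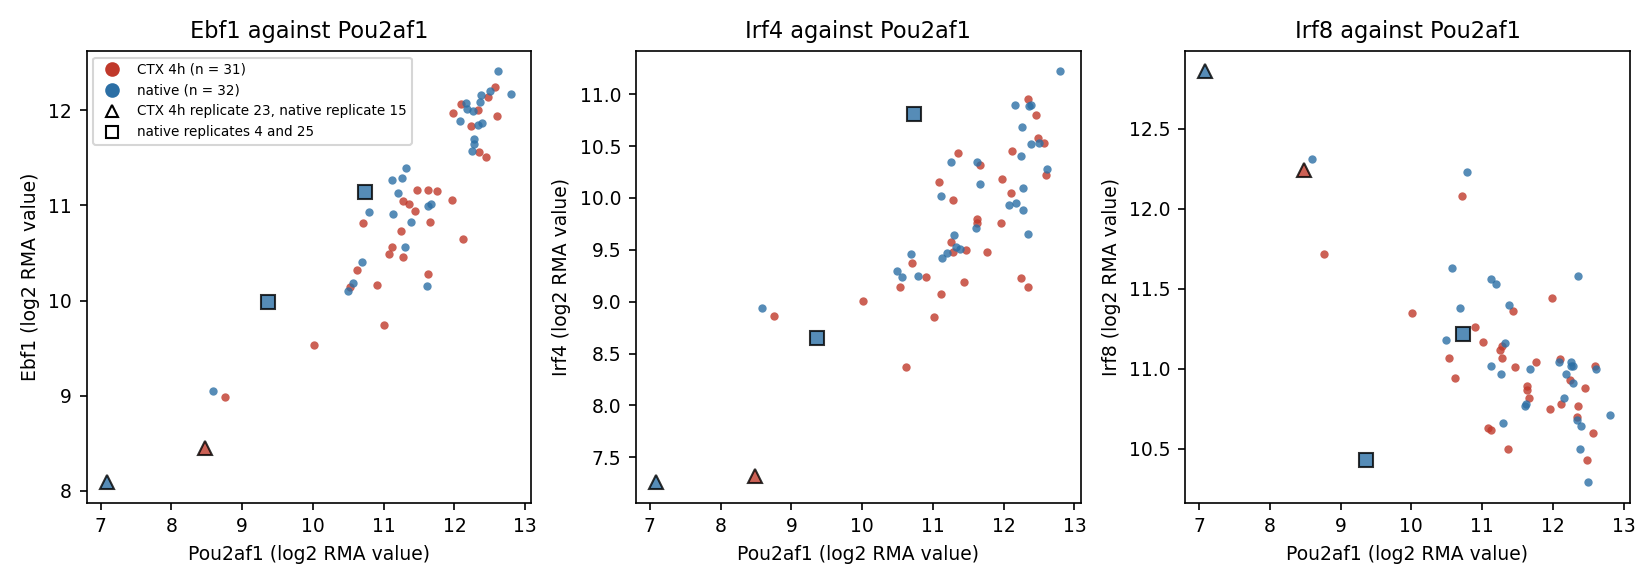
Log2 expression values of Ebf1, Irf4 and Irf8 (vertical axes) against Pou2af1 (horizontal axis) in each CTX 4h (red) and native (blue) array, not centred within batch. Ebf1 and Irf4 are lowest and Irf8 is highest at the lowest Pou2af1 values, 8.48 in CTX 4h replicate 23 and 7.09 in native replicate 15.

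Spib went with Irf8, a known partner on joint ETS and IRF sites, with r = 0.61 (rho = 0.56) in CTX 4h lymphomas and 0.51 (rho = 0.53) in native ones (adjusted permutation p = 0.00304 and 0.0185). Its r with Ebf1 was -0.01 in both groups. Spib with Ikzf1 was called in native lymphomas alone, with r = 0.35 in CTX 4h lymphomas and 0.58 in native ones (adjusted permutation p = 0.138 and 0.00911), and the native r was 0.29 without native replicates 4 and 25. Spib with Ikzf3 was called by r in both groups, at 0.52 in each (adjusted permutation p = 0.0154 and 0.0371). By rho it was called in CTX 4h lymphomas alone (adjusted permutation p = 0.0326 and 0.0516). Without native replicates 4 and 25 its native r was 0.26. Bcl6 and Prdm1 had r = 0.37 (rho = 0.56) in CTX 4h lymphomas (adjusted permutation p = 0.193 for r and 0.00687 for rho) and r = 0.60 (rho = 0.62) in native ones (adjusted permutation p = 0.00282 for r). Differences of r between the groups were not tested.

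The genes most similar to each member over the native arrays were found among all genes, and r over the CTX 4h arrays was set beside. Ebf1 and Pou2af1 both had Cd24a, which encodes a surface protein of immature B cells, as the most similar gene, with r = 0.78 and 0.92 in CTX 4h lymphomas and 0.94 and 0.96 in native ones. Dok3, an adaptor of B-cell receptor signalling, followed for Pou2af1 (0.87 in CTX 4h, 0.94 in native) and led for Irf4 (0.80 and 0.87), before Ebf1. Pax5 had Bach2, a B-cell transcriptional repressor (0.73 and 0.88), and Tfdp2 (0.68 and 0.85). Bcl6 had Stat4, a transcription factor of T and NK cells (0.76 and 0.88), and Lcp2, an adaptor of T-cell receptor signalling (0.82 and 0.86). Irf8 had Acox3 (0.78 and 0.87) and Prickle1 (0.62 and 0.85), and Spib had Kmt2b (0.63 and 0.83) and B4galt5 (0.64 and 0.83). Ikzf1 had Gatad2a (0.58 and 0.92) and Rtf1 (0.65 and 0.91), and Ikzf3 had Ankrd11 (0.61 and 0.88) and Osbpl9 (0.59 and 0.87). Prdm1 had Tmtc1 (0.41 and 0.80) and Bmp4 (0.46 and 0.79).

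The third question was how the regulators related to known target and stage genes. Of 15 such genes 12 were measured, and 240 relations were adjusted together. Cd79a, a joint EBF1 and PAX5 target, followed Ebf1 with r = 0.84 (rho = 0.68) in CTX 4h lymphomas and 0.84 (rho = 0.72) in native ones, with adjusted permutation p = 0.00048 and 0.000686. It followed Pax5 with 0.80 (rho = 0.63) and 0.73 (rho = 0.58), with adjusted permutation p = 0.00133 and 0.000686. Pou2af1 and Cd79a gave 0.85 (rho = 0.47) and 0.84 (rho = 0.70), with adjusted permutation p = 0.0111 and 0.0012. Without CTX 4h replicate 23 and native replicate 15, the Ebf1 and Cd79a r was 0.69 and 0.70 and the Pou2af1 and Cd79a r was 0.50 and 0.65. In series 1 r with Cd79a was 0.42 and -0.07 for Ebf1, 0.22 and -0.03 for Pax5 and -0.19 and -0.02 for Pou2af1, so in that series the native relations were near 0 and the CTX 4h ones were smaller than over all batches, with Pou2af1 turned in sign.

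Precursor and signalling genes followed other members. Igll1, an EBF1 target, ran over 4.98, 8.47 and 13.80 in CTX 4h lymphomas and over 4.80, 8.35 and 13.41 in native ones. Its r with Ebf1 was 0.61 (rho = 0.62) and 0.54 (rho = 0.50), with adjusted permutation p = 0.0112 and 0.0313. Blnk, the adaptor of pre-B-cell receptor signals, followed Ikzf1 with 0.70 (rho = 0.58) and 0.62 (rho = 0.46), with adjusted permutation p = 0.00144 and 0.013, and the native r was 0.39 without native replicates 4 and 25. In series 1 it was -0.21 and -0.49. Myc had r with Ikzf1 of 0.46 (rho = 0.32, adjusted permutation p = 0.0867) in CTX 4h lymphomas and 0.70 (rho = 0.75, adjusted permutation p = 0.00048) in native ones. Transgenic and endogenous Myc RNA were not told apart here.

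Sdc1, which encodes the plasma cell antigen syndecan-1, separated the IRF genes. It gave r = 0.66 (rho = 0.68) with Irf4 in CTX 4h lymphomas and 0.51 (rho = 0.56) in native ones, with adjusted permutation p = 0.0032 and 0.0261. With Irf8 it gave -0.64 (rho = -0.59) and -0.63 (rho = -0.66), with adjusted permutation p = 0.00388 and 0.0024, and with Spib -0.51 and -0.55. Prdm1, the plasma cell regulator, had r with the plasma cell gene Jchain of 0.07 (rho = 0.10, adjusted permutation p = 0.899) in CTX 4h lymphomas and 0.62 (rho = 0.62, adjusted permutation p = 0.00048) in native ones. Ciita, the master gene of MHC class II expression, had r with Spib of 0.63 (rho = 0.54, adjusted permutation p = 0.00651) in CTX 4h lymphomas and 0.36 (rho = 0.31, adjusted permutation p = 0.112) in native ones.

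Bcl6 stood outside the block and followed the mature B-cell gene Cr2 and marker scores of other cell types. It gave r = 0.80 (rho = 0.74) in CTX 4h lymphomas and 0.81 (rho = 0.79) in native ones with Cr2, the complement receptor of mature B cells and follicular dendritic cells (adjusted permutation p = 0.00048 in both). A score, the mean of the centred members of a marker list, was used for other cell types, and 140 relations with 7 scores were adjusted together. The T and NK cell score (14 of 15 markers measured) ran from -1.28 to 2.05 in CTX 4h lymphomas and from -1.04 to 1.97 in native ones. Bcl6 followed it with r = 0.78 (rho = 0.68) and 0.86 (rho = 0.87), with adjusted permutation p = 0.00084 and 0.0007, and with r between 0.69 and 0.93 in the batches of 6 or more arrays. It also followed the dendritic cell score, with r = 0.63 (rho = 0.53) and 0.71 (rho = 0.73), adjusted permutation p = 0.0152 and 0.00084. Prdm1 shared these relations in part, in native lymphomas and by rho alone. Its native rho was 0.62 with the T and NK cell score and 0.57 with the dendritic cell score (adjusted permutation p = 0.00747 and 0.0098). The native r was 0.47 and 0.43 (adjusted permutation p = 0.0817 and 0.0741). In CTX 4h lymphomas rho was 0.39 and 0.31 (adjusted permutation p = 0.142 and 0.256). CTX 4h replicate 31, with the highest Bcl6 of its group (9.76), also had its highest Cd3e, a chain of the T-cell receptor complex, at 11.73. The same array had the highest Ighm (12.10) and Cd22 (11.72), genes of B cells, and the highest Csf1r (11.80), a macrophage marker. T cells express Bcl6 as well, and the part of T-cell RNA in the Bcl6 values was not tested.

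The score of plasmacytoid dendritic cell markers (6 of 8 measured) ran from -0.94 to 1.52 in CTX 4h lymphomas and from -0.78 to 1.78 in native ones, highest in CTX 4h replicate 23 and native replicate 15. Irf8 followed it with r = 0.71 (rho = 0.60) and 0.77 (rho = 0.65), with adjusted permutation p = 0.000933 and 0.00084, and with 0.53 and 0.63 without those arrays. Pou2af1 ran against it with r = -0.74 (rho = -0.40) and -0.69 (rho = -0.38), with adjusted permutation p = 0.0134 and 0.0269 for r and 0.127 and 0.166 for rho. Without those arrays that r was -0.43 and -0.39. The next lowest Pou2af1 values, in CTX 4h replicate 2 (8.76) and native replicate 21 (8.59), came with Siglech at 8.93 and 8.87 and with Cd79a at 11.66 and 12.11. In CTX 4h replicate 31 Siglech was higher, at 9.20, with Pou2af1 at 11.98. Whether other cells or the lymphoma cells carried these transcripts was not tested. Ikzf1 followed the score of MYC target genes with 0.59 (rho = 0.49) and 0.77 (rho = 0.69), with adjusted permutation p = 0.0273 and 0.0007, but -0.11 in CTX 4h series 1.

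The last question was whether the regulators differed 4 h after the drug. None of the 10 genes passed (limma with treatment and RNA input, adjusted p under 0.05), beside 2.67% of all 19938 genes, 1.41% higher and 1.26% lower. At an unadjusted p under 0.05 the counts were 1 of 10 members, Ikzf1, and 3484 of all genes. Log2 fold changes were negative for 8 of 10 members, with a median of -0.262 against -0.011 over all genes. The ranges of both groups overlapped for each member.

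Ikzf1, which encodes Ikaros, averaged 10.93 ± 0.51 (SD, n = 31) in CTX 4h lymphomas and 11.15 ± 0.52 (SD, n = 32) in native ones, a log2 fold change of -0.35 ± 0.14 (SE, 95% interval -0.64 to -0.06, limma adjusted p = 0.183). It passed without native replicate 25 (-0.45, limma adjusted p = 0.0324) and with quantile normalization (limma adjusted p = 0.0406). Ebf1 averaged 10.87 ± 0.92 in CTX 4h lymphomas and 11.16 ± 0.98 in native ones, with -0.46 ± 0.27 (SE, limma adjusted p = 0.371). Pax5 gave -0.30 ± 0.16 (limma adjusted p = 0.303) and Irf4 -0.38 ± 0.22 (limma adjusted p = 0.377). The 95% intervals of Ebf1, Pax5 and Irf4 reached 0.08, 0.01 and 0.07 at their upper ends.

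The other members gave smaller or less certain differences. Bcl6 had -0.28 ± 0.19, Pou2af1 -0.24 ± 0.32, Ikzf3 -0.18 ± 0.14 and Spib -0.04 ± 0.15, with limma adjusted p between 0.444 and 0.912. Irf8 had 0.10 ± 0.13 and Prdm1 0.16 ± 0.19. The sign for Irf8 came with the RNA input term: its means were 11.04 in CTX 4h and 11.13 in native lymphomas, and without that term its log2 fold change was -0.09. Of 31 CTX 4h arrays, 19 had Prdm1 higher than the native median, and 22 each had Pax5 and Ebf1 lower. Limma's array weights, which give less weight to noisier arrays, called Ikzf1 (-0.52), Pax5 (-0.46), Ebf1 (-0.71) and Ikzf3 (-0.32), with limma adjusted p between 0.000901 and 0.0393.

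**Figure D4:**
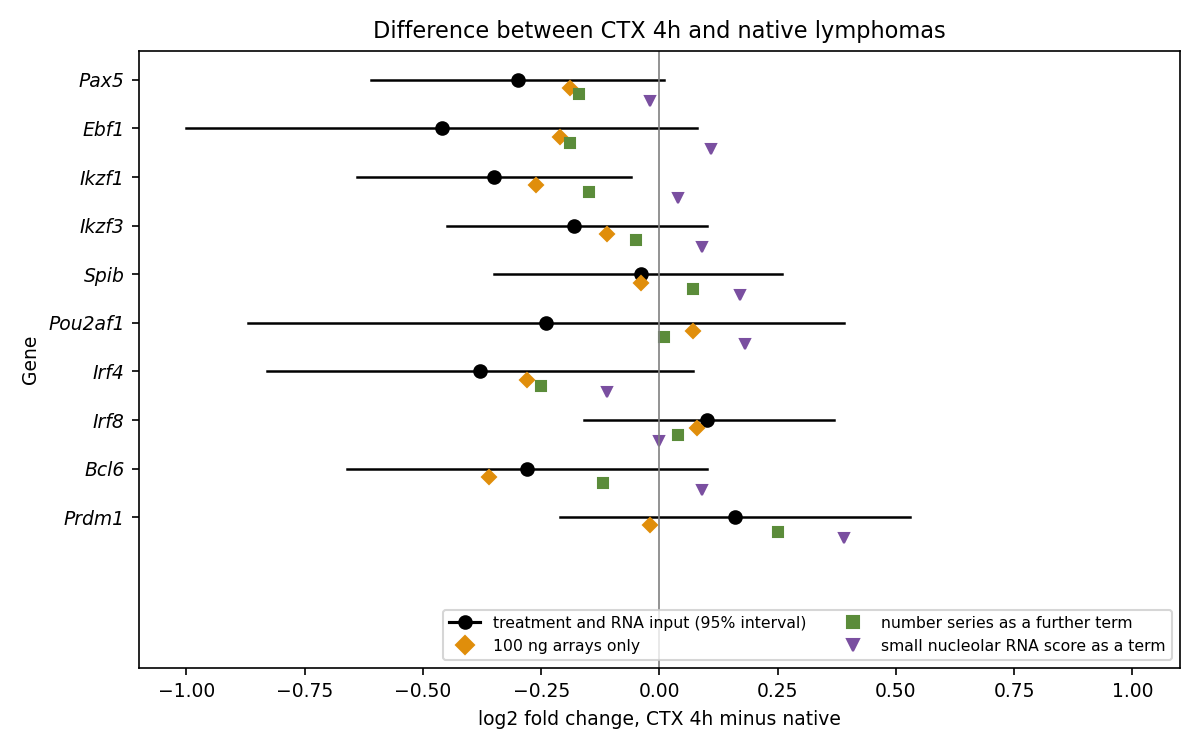
Log2 fold change of each gene, CTX 4h minus native, from the fit with treatment and RNA input (black points, 95% intervals) and from 3 other settings (coloured markers: 100 ng arrays only, number series as a further term, small nucleolar RNA score as a further term). The interval of Ikzf1 alone lies below 0, and the markers with the small nucleolar RNA score lie between -0.11 for Irf4 and 0.39 for Prdm1.

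Other measures moved with the groups. The score of 56 small nucleolar RNA genes had a median of 0.42 in CTX 4h lymphomas and 0.01 in native ones. It also went with the number series. All series 1 arrays of both groups lay between -1.61 and -0.93, and no other array lay below -0.74. With this score as a term the log2 fold changes were 0.04 for Ikzf1, 0.11 for Ebf1, -0.02 for Pax5 and -0.11 for Irf4. Such a fit also takes up differences between the series. Macrophage markers (13 of 14 measured, score -0.83 to 1.26 in CTX 4h and -0.57 to 0.31 in native lymphomas) had 2 genes called higher, Fcgr1 and Cd14. Stromal markers (10 of 11 measured, score -0.69 to 0.91 and -0.63 to 0.41) had 5 called higher, Col1a1, Col1a2, Col3a1, Col6a1 and Lum. Of 14 T and NK cell markers 13 had a negative log2 fold change, with a median of -0.33, and 1 was called lower, Ncr1 (-0.42, limma adjusted p = 0.0433). With the macrophage and stromal scores as terms Ikzf1 was at -0.22, Ebf1 at -0.24 and Pax5 at -0.19. Fits with these terms are not tests of their part in the differences, which was not tested.

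Within batches the difference was largest in size at 300 ng, where the CTX 4h group holds 2 arrays, for each member but Spib and Bcl6. Ikzf1 was 10.20 and 10.26 in these CTX 4h arrays, below the lowest of 17 native arrays (10.58), a difference of -0.84 (exact permutation p = 0.0117, adjusted over 40 tests 0.468). Ebf1 was 8.99 and 9.53 in them, against a native mean of 11.13 at 300 ng (exact permutation p = 0.0585). CTX 4h replicates 1 and 2, the arrays in question, had macrophage scores of 1.26 and 0.83 and stromal scores of 0.91 and 0.59. The highest native scores were 0.31 and 0.41. The part of other cells in these differences was not tested. Pou2af1 differed by -1.96 and Prdm1 by 1.13 (exact permutation p = 0.14 and 0.0468, adjusted 0.775 and 0.585). When CTX 4h replicate 2, 1 of these arrays, was left out of the fit over all batches, the log2 fold change was -0.33 for Ebf1 and -0.05 for Pou2af1. Of 40 within-batch tests 2 had p under 0.05 and 0 passed after adjustment, and no member was lower in CTX 4h lymphomas in all 4 batches. In the 100 ng arrays alone the log2 fold changes were -0.26 for Ikzf1, -0.21 for Ebf1, -0.19 for Pax5 and 0.07 for Pou2af1. The interaction of treatment and RNA input passed for 0 of 10 members and for 0.0201% of all genes, and 300 ng against 100 ng for 0 of 10 members and 0.16% of all genes.

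Many genes differed between the number series, most of the members among them. Among 100 ng arrays, and in a comparison added after the values were seen, 7 of 10 members differed between the series (limma F test, adjusted p under 0.05), beside 52.3% of all genes. Ikzf1 averaged 11.75 in series 1, 10.77 in series 8 and 10.78 in series 9, and Ebf1 averaged 11.97, 10.66 and 10.67. Pou2af1 averaged 12.30, 11.09 and 11.23, and Pax5 11.35, 10.56 and 10.79. For these genes series 1 stood above the others and series 8 and 9 lay close together. Irf4, Irf8 and Prdm1 did not pass (limma adjusted p = 0.0545, 0.195 and 0.0965). The labels do not say what the numbers stand for. With the series as a further term the treatment difference of Ikzf1 was -0.15.

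**Figure D5:**
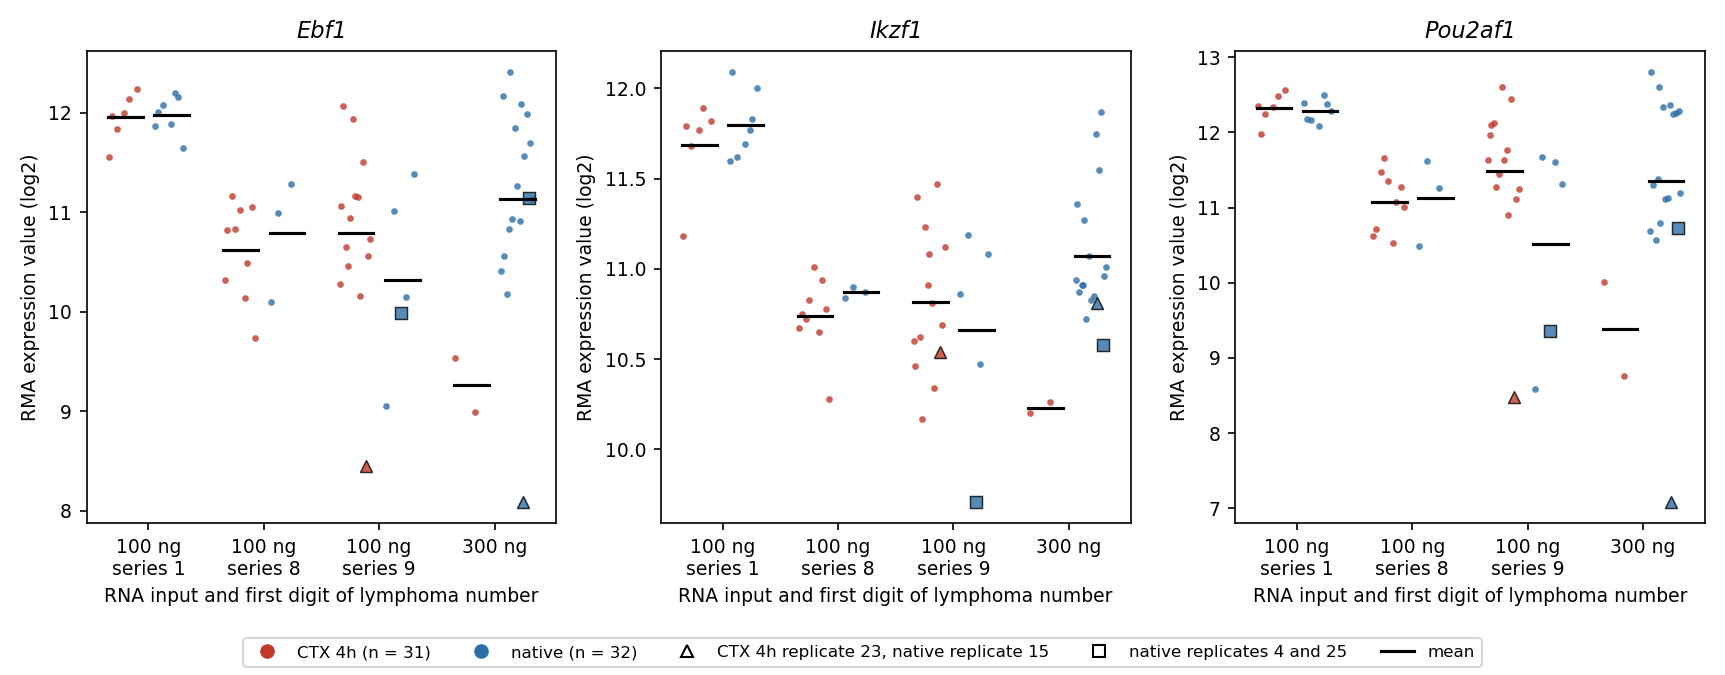
Log2 expression values of Ebf1, Ikzf1 and Pou2af1 by batch (number series 1, 8 and 9 at 100 ng, and 300 ng), with CTX 4h arrays (red) left of native arrays (blue) and black bars for means; triangles mark CTX 4h replicate 23 and native replicate 15, squares native replicates 4 and 25. Both groups are high in series 1, where Pou2af1 averages 12.33 in CTX 4h and 12.28 in native arrays, and the 2 CTX 4h arrays at 300 ng are low.

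Further genes of the B-lineage programme gave few calls between the groups. Of 85 genes on 8 lists of other regulators, targets and stage genes, 2 were higher in CTX 4h lymphomas (1.41% of all genes were) and 0 lower. Id2, an inhibitor of E proteins, had 9.38, 10.89 and 12.23 in CTX 4h lymphomas and 9.27, 10.09 and 11.72 in native ones (lowest, median, highest), and rose by 0.71 ± 0.18 (SE, limma adjusted p = 0.0198). Ccl3, a chemokine gene listed as held down by PAX5, had 6.93, 8.79 and 11.36 in CTX 4h lymphomas and 6.39, 8.16 and 9.50 in native ones, and rose by 1.06 ± 0.26 (SE, limma adjusted p = 0.0158). It is also a gene of macrophages, whose markers are given above, and their part was not tested. The groups overlapped for both genes, and neither call was made in the 100 ng arrays alone or without CTX 4h replicate 1 or 2. Of 14 measured PAX5- and EBF1-activated genes, 14 had a negative log2 fold change in the fit with RNA input and 0 passed, with a median of -0.32 against -0.011 over all genes. The group means ran the other way for Igll1 (8.52 in CTX 4h, 8.43 in native), Vpreb1 (6.80 and 6.69) and Bst1 (8.64 and 8.54), so their sign came with the RNA input term. Cd22, a brake on B-cell receptor signals, had -0.27 (limma adjusted p = 0.0891), with means of 10.86 in CTX 4h and 11.18 in native lymphomas.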

How the data were processed

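Gene expression was measured in 63 arrays. The deposited values are log2 expression values, which the authors made with Partek 6.5 and RMA (background correction, normalization between arrays and a summary per probe set), per the submitters' processing notes, and no source used here tells which arrays were normalized together. RMA compresses differences of dim genes. Of 35557 probe sets 21789 had 1 gene symbol, 1621 several and 12147 none listed, and 21698 of those with 1 symbol matched a RefSeq gene of GRCm38.p6. Where several such probe sets named 1 of the 19938 genes, the one with the highest mean was taken, and each of the 10 members had 1. Groups came from the treatment label, and replicate numbers follow accession order.

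The contrast was fitted with limma 3.58.1 under R 4.3.3 (functions lmFit and eBayes, treatment and RNA input, all genes, two-sided, Benjamini-Hochberg adjusted p under 0.05) and tested on simulated data. Relations used batch-centred values and two-sided permutations within batch, in numpy 2.4.6, and within-batch contrasts exact permutation tests in scipy 1.17.1. Figures were drawn with matplotlib 3.10.9. The members, lists and tests were chosen with earlier results of these data known. Named genes are the members, up to 12 pairs past the threshold with the largest r and others singled out after their values were seen, the listed target genes, for each member the 2 most similar native genes, and list genes past the threshold or named after seeing values. Alternatives were other terms, array subsets, normalizations, probe set rules, a filter on dim genes, array weights and leaving out arrays.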

Additional observations from a re-analysis of the deposited data

How the results depend on the processing

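No paired analysis was possible because replicate numbers follow accession order and the labels tie no CTX 4h array to a native array. Of 10 members 0 passed between CTX 4h and native lymphomas, but 1 passed with quantile normalization, 4 with array weights and 1 without native replicates 4 and 25 (an alternative chosen after seeing the data). Leaving out 1 array in turn gave 0 to 1 members, the 1 without native replicate 25. The 2 calls among the other B-lineage genes became 0 in the 100 ng arrays, 1 with the number series as a term and 20 with array weights, and, in alternatives added after seeing the data, 0 with the macrophage and stromal scores and 1 with the small nucleolar RNA score. Leaving out 1 array gave 0 to 3, with 0 without CTX 4h replicate 1 or 2. Over all genes, leaving out 1 array gave 136 to 551 higher and 105 to 1034 lower calls. The 22 pairs called in native lymphomas became 3 in the 15 native arrays at 100 ng. The 42 relations with target genes became 74 without batch centring and 21 without the 2 farthest arrays. The 17 relations with scores became 43 without batch centring, 8 at 100 ng and 11 without native replicate 15 and CTX 4h replicate 23. The cause of these moves was not tested, and some of these settings also hold fewer arrays. Of the 39 pairs called over both groups, 12 lost the call without the 2 farthest arrays, 7 by Spearman's rho, 10 with quantile normalization, 6 without native replicate 15 and CTX 4h replicate 23, 3 without native replicates 4 and 25 and 19 at 100 ng, and none reversed.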

Other observations

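Pou2af1 was lowest and second lowest in CTX 4h replicates 23 and 2 (8.48 and 8.76) and in native replicates 15 and 21 (7.09 and 8.59). Ebf1 was 8.45 and 8.99 in these CTX 4h arrays and 8.09 and 9.05 in the native ones. Igll1 was 4.98 and 5.18 in the CTX 4h arrays and 4.95 and 4.80 in the native ones, the lowest values of both groups. The next lowest Pou2af1 values were 10.01 in CTX 4h replicate 1 and 9.36 in native replicate 25, and Igll1 was 9.02 in the last.

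Within these 4 arrays Spib was not low, with 12.01 and 11.91 in CTX 4h replicates 23 and 2 and 11.79 and 12.04 in native replicates 15 and 21, against group medians of 11.45 and 11.74. Cd37, a B-cell surface gene that was no member, was at 10.71 and 10.53 in the CTX 4h arrays and at 10.91 and 10.75 in the native ones, the lowest values of each group. Cd22 was within the range of the other arrays, at 10.56 and 10.99 in the CTX 4h arrays and 11.25 and 11.55 in the native ones. So was Ms4a1, a listed mature B-cell gene, at 9.47 and 12.06 in the CTX 4h arrays and 9.65 and 12.14 in the native ones. Blnk was at 10.32 and 10.27 and at 10.49 and 10.67, also within that range.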
